A study of Mus musculus with 4 samples.

Results

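The substitutions described here are the missense changes carried by a large share of the messenger RNA in 2 mouse cancer cell lines. A missense change replaces 1 amino acid of the encoded protein. A listed variant was taken when reference and alternative allele were 1 base each, its predicted effect was a changed amino acid, and its alternative-allele fraction was at least 0.2. The fraction is the share of the reads at a site, pooled from a line's 2 libraries, that show the alternative base. Members were thus chosen by their measured fraction. The rule found 275 substitutions among 11806 listed variants. MBT2 had 218, in 211 genes, and LM8 had 57, in 57 genes.

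MBT2 is a bladder cancer line and LM8 an osteosarcoma line, both syngeneic with C3H/HeN mice. The MBT2 titles carry the number 63, whose meaning is not stated. Culture medium was RPMI-1640 for MBT2 and MEM with HEPES at 24 mM for LM8, each with serum and antibiotics and no other treatment stated. Each line gave 2 poly(A) RNA libraries read as 2 × 75 bases. Whether the duplicates were separate cultures is not stated, so their spread may be technical. No normal C3H/HeN tissue was set beside the lines, so inherited differences between this strain and the reference genome cannot be told apart from changes acquired in the tumours. Of the members, 2 of 218 in MBT2 and 1 of 57 in LM8 were also in the other line's list. What this overlap means for inherited differences was not tested. No listed missense substitution fell in a gene of the urothelial and epithelial marker list, so the lists cannot check the bladder label. Of the osteoblast and mesenchymal list, 2 MBT2 genes had a listed missense substitution, of which Col3a1 carried members, and no LM8 gene did.

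An RNA fraction is the share of a gene's transcripts that carry the base. A change on 1 of several gene copies, unequal expression of the copies, a mixture of cells, and enzymatic editing of the RNA all set it, and these cannot be told apart from RNA alone. One known form of editing is the deamination of adenosine to inosine, which sequencing reads as a change from A to G. In cancer cells, missense changes matter to biologists both as altered regulators of growth and as possible sources of peptides that the immune system can see.

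The sequences below are the transcript windows of members in genes that regulate growth, chromatin or antigen presentation, and of the 1 site that is a member in both lines. Each has 12 bases on either side of the changed codon, 5′ to 3′ on the RNA strand and written as DNA, with the codon in capitals. They come from GENCODE release M21 transcripts matched by transcript identifier and codon. The alternative is the same window with the listed base.
Trp53 C239Y in MBT2, reference: tgtaatagctccTGCatggggggcatg
Trp53 C239Y in MBT2, alternative: tgtaatagctccTACatggggggcatg
Ppp2r1a A147S in MBT2, reference: tcccgcacctcgGCCtgtggtctcttc
Ppp2r1a A147S in MBT2, alternative: tcccgcacctcgTCCtgtggtctcttc
Crebbp E1551Q in MBT2, reference: cctaatgtgttgGAAgaaagcattaag
Crebbp E1551Q in MBT2, alternative: cctaatgtgttgCAAgaaagcattaag
Ncor1 Y973C in MBT2, reference: tccactcgacagTATgaaggtccactg
Ncor1 Y973C in MBT2, alternative: tccactcgacagTGTgaaggtccactg
Hjurp R350H in MBT2, reference: gaaggaagcaaaCGCcaagtccataaa
Hjurp R350H in MBT2, alternative: gaaggaagcaaaCACcaagtccataaa
H2-K1 Y277N in MBT2, reference: gggaaggagcagTATtacacatgccat
H2-K1 Y277N in MBT2, alternative: gggaaggagcagAATtacacatgccat
H2-K1 Q285E in MBT2, reference: catgtgtaccatCAGgggctgcctgag
H2-K1 Q285E in MBT2, alternative: catgtgtaccatGAGgggctgcctgag
Plk1 I192T in MBT2, reference: ctggaggtgaaaATAggggattttggc
Plk1 I192T in MBT2, alternative: ctggaggtgaaaACAggggattttggc
Fgfr1 W101C in LM8, reference: cccactctgcgcTGGttgaaaaatggc
Fgfr1 W101C in LM8, alternative: cccactctgcgcTGCttgaaaaatggc
Notch1 L2200F in LM8, reference: ccccatggctacTTGtcagatgtggcc
Notch1 L2200F in LM8, alternative: ccccatggctacTTCtcagatgtggcc
Setd2 R457Q in LM8, reference: gataacagggcaCGGgagagctcagac
Setd2 R457Q in LM8, alternative: gataacagggcaCAGgagagctcagac
Aurkb A324P in LM8, reference: cggctgcccctgGCGgaggttgcagct
Aurkb A324P in LM8, alternative: cggctgcccctgCCGgaggttgcagct
Cog3 I635V in both lines, reference: accattaaggaaATTtccctggacctc
Cog3 I635V in both lines, alternative: accattaaggaaGTTtccctggacctc

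Members made up 28.9% (exact 95% interval 25.7 to 32.3) of the 754 listed missense substitutions of MBT2 and 8.96% (6.86 to 11.5) of the 636 of LM8. The fraction chose the members, so its distribution is a description. In MBT2 the fractions fell into 2 ranges with few values between. There were 151 members from 20.0% to 41.2%, with a median of 30.3%, and 67 from 58.8% to 100%, with a median of 70.7%. Of the 218, only 2 lay from 0.4 to under 0.6. In LM8, 51 of 57 lay under 0.3, and the 54 under 0.5 ran from 20.0% to 36.3% with a median of 23.8%. The other 3 LM8 members were Cog3 I635V at 84.8%, Tnxb T2050S at 83.0% and Plxna1 P1023S at 64.9%. The lists had also passed a filter on sites scored as germline, per the file headers.

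The limit cut through a continuous run of values. Just inside it in MBT2 were Ovgp1 K679M at 20.0%, Vps13a M349I at 20.8% and Med13l S2156Y at 20.8%. Just outside were Ddx54 A513V, with 132 of 661 reads, and Abi1 N323S and Ranbp6 Y749C, both at 19.7%. In LM8, Fosl2 R127C at 20.0%, Smc5 R289C at 20.1% and Aurkb A324P at 20.3% were inside. Scaf11 E670Q at 19.9% and Msh3 A204T at 19.8% were outside. LM8 membership is thus decided within counting error for these genes: the exact interval of Aurkb A324P ran from 17.0% to 23.9%.

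The depth at members ranged from 14 to 2785 reads in MBT2, with a median of 273, and from 46 to 2637 in LM8, with a median of 235. Missense substitutions under the limit had medians of 108 and 102 reads. Over all members, the libraries held 47738 and 49977 reads in MBT2 and 12021 and 11123 in LM8. Amplified reads can copy 1 molecule many times, so every interval covers counting error only.

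The duplicate libraries were compared with Fisher's exact test (two-sided) per site, Benjamini-Hochberg adjusted over all sites of the line's list. No member was called in either line after adjustment, where 0% of all listed sites were called. At an unadjusted p under 0.05, 14 MBT2 members (6.42%) differed, beside 3.76% of all listed MBT2 sites. In LM8, 4 members (7.02%) did, beside 3.89% of all listed LM8 sites. The widest gaps by this p, named after their values were seen, were Ctnna1 I175V in MBT2 and Tns3 P1210L in LM8. Ctnna1, which encodes the adhesion protein alpha-catenin, had 30.4% and 40.2% in libraries 1 and 2 (Fisher's exact p = 0.00321). Tns3, a focal adhesion protein, had 17.7% and 36.8% (Fisher's exact p = 0.00188).

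The fraction was at least 0.2 in each library for 206 of 218 MBT2 members but for only 35 of 57 LM8 members. LM8 members also lay nearer the limit, with a median of 24.2% and a lower quartile of 21.5%, beside 33.4% and 28.5% in MBT2. The median difference between libraries was 3.48 percentage points in MBT2 and 5.32 in LM8. Across members, Pearson's r between library 1 and library 2 was 0.955 for the 218 MBT2 sites and 0.808 for the 57 LM8 sites. These r values describe sites that share 2 libraries and were cut at 0.2, and are not replicates. They also depend on the spread of fractions, which is wide in MBT2 and rests on few high sites in LM8.

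**Figure D1:**
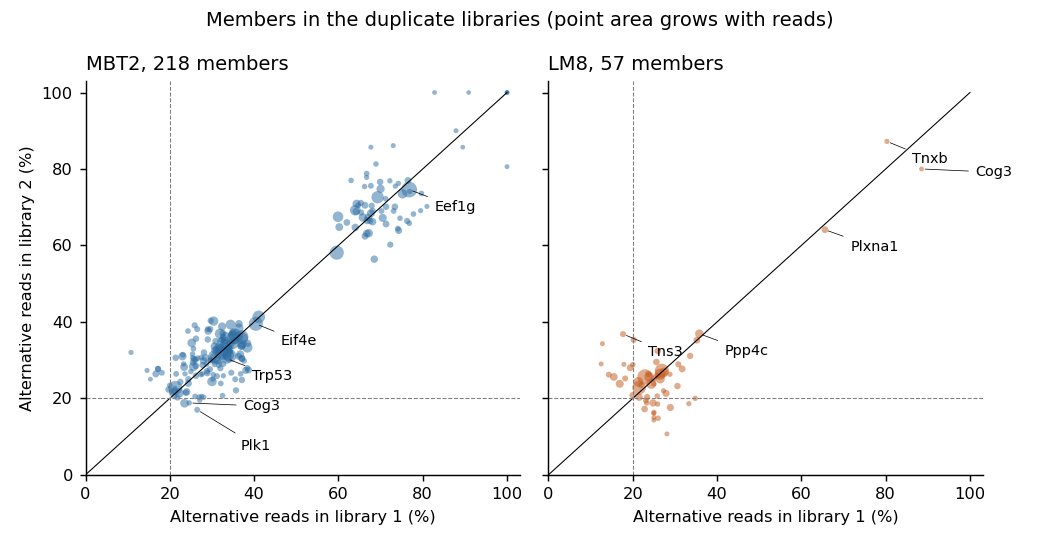
Alternative-read share of each member in library 1 (x axis, %) and library 2 (y axis, %), 1 point per member with an area that grows with its reads. Dashed lines mark the limit and the solid line equality. MBT2 members gather in 2 clouds along the line of equality, and 22 of the 57 LM8 members lie under the limit in 1 library.

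Among tumour suppressors and oncogenes, 3 of the 6 MBT2 genes with a listed missense substitution carried a member, beside 31.1% of all 678 MBT2 genes with one. Trp53 encodes p53, the transcription factor that halts or kills damaged cells. Its C239Y, a G-to-A change in exon 7 (chromosome 11, position 69480019, GRCm39), had 33.5% of 549 reads in library 1 and 30.4% of 539 in library 2. The pooled fraction was 32.0% (29.2 to 34.8). Ppp2r1a encodes the scaffold subunit of the phosphatase PP2A. Its A147S in exon 4 (chromosome 17, position 21176218) had 31.5% and 32.7%, and 32.1% of 1258 reads pooled (29.5 to 34.8). Trp53 and Ppp2r1a thus both stood in the lower MBT2 range, and their intervals overlapped almost wholly.

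In LM8, 2 of 7 genes of the same list carried a member, beside 9.79% of all 582. Fgfr1, a receptor tyrosine kinase for fibroblast growth factors, had W101C in exon 4 (chromosome 8, position 26048208) at 24.4% and 23.8%, and 24.2% of 1006 reads pooled (21.5 to 26.9). The receptor Notch1 had L2200F in exon 34 (chromosome 2, position 26350539) at 25.0% and 15.0%. Its pooled value of 21.2% rested on 52 reads, with an interval of 11.1 to 34.7. The Notch1 interval includes the limit and the Fgfr1 interval does not. Neither list count was tested, and with so few genes neither sets the list apart.

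Of the chromatin regulators, 3 of 6 MBT2 genes and 1 of 7 LM8 genes with a missense substitution carried a member, beside 31.1% and 9.79% of all genes with one. These 2 shares are the background for every list count that follows, and no list count was tested. Hjurp, the chaperone that places the centromeric histone CENP-A, had R350H (chromosome 1, position 88193858, exon 8) at 32.4% and 35.3%. The corepressor Ncor1 had Y973C (chromosome 11, position 62220947, exon 17) at 34.8% and 35.0%. The acetyltransferase Crebbp had E1551Q (chromosome 16, position 3909736, exon 28) at 32.1% and 33.0%. These 3 MBT2 fractions differed by less than their counting intervals, which together spanned 25.7% to 41.4%. In LM8 the histone H3 lysine methyltransferase Setd2 had R457Q (chromosome 9, position 110377556, exon 3) at 23.3% and 18.8%. This list is hand-made, and chromatin genes outside it also carried MBT2 members, among them Kdm2a S1074G.

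The cell cycle and mitosis list had a member in 1 of 3 MBT2 and 1 of 11 LM8 genes with a missense substitution, a mitotic kinase in each line. Plk1, which drives entry into mitosis, had I192T in MBT2 at 26.5% of 98 reads and 17.0% of 106. The same base was listed in LM8 under the limit, at 8.62% and 10.0%. The alternative base of Plk1 I192T lay a median of 5 bases from the read end in MBT2 and 3 in LM8. Aurkb, the kinase of the chromosomal passenger complex, had A324P in LM8 at 16.9% and 23.8%. Mitosis genes outside this hand-made list also carried MBT2 members, such as Mad1l1 M245V, named after its value was seen. The DNA repair and replication list held no member in either line, with 5 MBT2 and 6 LM8 genes that carried a missense substitution under the limit. Genes of DNA repair outside this hand-made list did carry members: Gen1, a nuclease that cuts recombination junctions, with K82E at 74.8% in MBT2 (named after its value was seen), and Smc5 in LM8.

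H2-K1, a classical class I molecule that shows peptides to T cells, had 2 MBT2 members in exon 4. They were 24 bases apart and called in 1 phase group, a label that alone does not place them on the same molecules. Y277N (chromosome 17, position 34216316) had 36.4% and 38.4%, and Q285E (position 34216292) 28.5% and 30.6%. Class I genes differ between mouse strains and resemble one another, so whether these bases come from the strain's own allele or from a related gene was not tested. Q285E had a median distance of 7 bases from the read end and Y277N was 1 of the 5 MBT2 members whose population frequency annotation differed from most sites. No other gene of the antigen presentation and interferon list carried a member in MBT2, and none of the 3 LM8 genes with a missense substitution did. The list is hand-made, and interferon response genes outside it did carry MBT2 members: Ifih1 V810F and Oas3 Y1062H, named after their values were seen.

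Cog3 I635V was the only site that was a member in both lines. Cog3 is a subunit of a complex that tethers vesicles at the Golgi, and its isoleucine-to-valine change is a known recoding site of A-to-I editing. The A-to-G change lay in exon 17 (chromosome 14, position 75957159). In MBT2 it had 24.6% of 61 reads in library 1 and 18.8% of 69 in library 2. In LM8 it had 88.5% of 26 and 80.0% of 20. Both LM8 libraries stood above both MBT2 libraries, and the pooled intervals, 14.8 to 29.6 and 71.1 to 93.7, did not overlap. Fractions chose the site, so no test is given. The editing list had 3 MBT2 and 5 LM8 genes with a missense substitution, and Cog3 was its only member in each line.

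Apart from Cog3, 2 genes, named after their values were seen, carried members at different sites in each line, so that 3 genes were shared, 1.42% of the 211 MBT2 genes and 5.26% of the 57 LM8 genes. Spg20, which encodes spartin, had A666E in MBT2 at 66.8% and 66.5% and I567S in LM8 at 21.3% and 24.3%. Pias2, a SUMO ligase, had D479N in MBT2 at 66.7% and 63.1% and D421H in LM8 at 30.6% and 23.2%. In each gene the MBT2 site was in the upper range and the LM8 site in the lower one.

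In MBT2, 7 genes carried 2 members and no gene in either line carried 3. The genes named from these pairs, apart from H2-K1 and Col3a1, were named after their values were seen. Beside H2-K1, 2 of these pairs were called in 1 phase group, and their values show that such members are not independent. Smyd2, a lysine methyltransferase, had M339I and L340V at neighbouring bases, each with 117 of 346 reads. Taf6, a subunit of the general transcription factor TFIID, had W370L and T371A 2 bases apart, each with 48 of 222 reads. The reference windows show the neighbouring codons in capitals in turn.
Smyd2 M339I in MBT2, reference: agcaatgtgtacATGctgcacatgatg
Smyd2 L340V in MBT2, reference: aatgtgtacatgCTGcacatgatgtac
Taf6 W370L in MBT2, reference: gagaagactccaTGGacaactcgatat
Taf6 T371A in MBT2, reference: aagactccatggACAactcgatatggc

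The pairs in Col3a1, Mapk8ip2 and Cbwd1 lay 1368 bases or more apart and were not phased. Col3a1, a fibrillar collagen chain, had P711H at 37.2% and 35.7% and G950A at 69.3% and 72.6%, 1 in each MBT2 range. Mapk8ip2, a scaffold of JNK signalling, also had 1 in each, Y665C at 27.1% and A729S at 75.3%. The 2 members of Cbwd1 were both in the upper range, G280R at 75.3% and A87V at 70.9%.

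Of the 10 deepest MBT2 members, 6 were in the translation and ribosome list, whose genes were chosen by name pattern and whose share among other deep sites was not measured. Eef1g, a subunit of the elongation factor that delivers tRNA, had W322S at 76.8% and 74.6% of 1381 and 1404 reads. Eif4e, which binds the mRNA cap, had I78K at 40.4% and 39.5%. The initiation factor subunit Eif3g had D125Y at 21.3% and 22.7%. Among the most precise values in MBT2, these 3 fractions had intervals that did not overlap: 74.1 to 77.3, 37.9 to 42.0 and 20.3 to 23.8.

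The elongation factor subunit Eef1d had A483P at 35.5%, the ribosomal protein gene Rpl27 had G16V at 36.0% and the nucleolar methyltransferase Nop2 had R227W at 30.7%. In all, 9 of 24 MBT2 translation and ribosome genes with a missense substitution carried a member (37.5%, beside 31.1% of all genes), and none of 14 LM8 genes did (beside 9.79%). The other deep MBT2 members were Slc16a1 A460P at 58.8%, in the lactate carrier MCT1, Calm2 N54Y at 32.6%, in a calmodulin gene, Cdc42 N92S at 32.7%, in a GTPase of cell polarity, and Hnrnpu D459Y at 36.6%, in a nuclear RNA-binding protein. Ribosomal protein, calmodulin and elongation factor genes have close copies in the genome. All members had a median mapping quality of 60 for the alternative reads, but how reads of such copies were placed was not tested.

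The deepest LM8 members had fractions close to one another. LM8 members as a whole were also close, with a lower quartile of 21.5% and an upper quartile of 27.1%. The limit that chose them narrows the range, and whether depth plays a part was not tested. Tnc, the matrix glycoprotein tenascin C, had R572C at 22.9% of 1404 reads and 25.6% of 1233. Ybx1, an RNA-binding protein with a cold shock domain, had A313T at 26.9% and 27.2%. The corepressor Tle5 had H174Q at 21.5% and 22.8%. The autophagy receptor Sqstm1, also called p62, had H342L at 26.5% and 26.3%. In all, 9 of the 10 deepest lay between 22.1% and 27.1%, also Fgfr1, Spg20, Insc A345S at 24.7%, the collagen Col6a3 K1303Q at 25.9% and the coatomer subunit Arcn1 N75D at 27.1%. The exception was Ppp4c, a phosphatase catalytic subunit, with G218A at 35.8% and 36.9%. Its interval of 32.6 to 40.1 lay above those of the other 9.

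The membrane traffic and nuclear pore list held 9 member genes of 21 with a missense substitution in MBT2 (42.9%, beside 31.1% of all genes). For LM8 it held 2 of 13 (15.4%, beside 9.79%). Cltc, the clathrin heavy chain, had H1458L at 59.9% and 67.5%. The early endosome GTPase Rab5c had R40S at 30.8% and 32.5%, and the export receptor Xpo6 had R747H at 33.8% and 32.2%. In LM8 the second member beside Cog3 was Nup93 F528C, in a nuclear pore scaffold protein, at 27.9% and 21.3%.

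Extracellular matrix and adhesion genes carried members in 4 of 11 MBT2 and 3 of 11 LM8 genes (36.4% and 27.3%, beside 31.1% and 9.79% of all genes). Beside Col3a1 these were the fibrillin gene Fbn1, with A2826T at 32.5%, the laminin gene Lamc1, with D1589N at 36.2%, and the integrin gene Itgav, with Q1024E at 28.6%, in MBT2. The LM8 genes were Tnc, Col6a3 and the tenascin gene Tnxb. Solute carriers and ion transport had 6 of 16 in MBT2 and 0 of 11 in LM8. The calcium and manganese pump gene Atp2c1 had T348A at 35.6% and the vitamin C carrier gene Slc23a2 had S338T at 71.2%.

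The ubiquitin system had 7 of 28 member genes in MBT2 (25.0%, beside 31.1%) and 2 of 16 in LM8 (12.5%, beside 9.79%). In MBT2 they included Trim47 M502L at 26.0% and the deubiquitinase Usp4 Q392R at 68.8%. In LM8 they were Uba3 F264C at 20.6%, in the activating enzyme of NEDD8, and Usp47 F939V at 29.9%. Of the RNA helicase, splicing and RNA-binding list, 5 of 20 and 1 of 12 genes carried a member. The helicase Ddx24 had R787W at 30.7% and the splicing factor Srsf5 had A131S at 67.7% in MBT2, and the helicase Dhx29 had V775I at 24.8% in LM8.

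Zinc finger proteins had 4 of 13 in MBT2 (30.8%, beside 31.1%) and 1 of 11 in LM8 (9.09%, beside 9.79%). In MBT2 they were Zfp771 Y147H at 68.6%, Zfp568 C222F at 71.6%, Zfp655 C413F at 27.0% and Zfp948 H195R at 89.0%, and in LM8 Zfp995 F388L at 20.4%. Actin cytoskeleton regulators had 3 of 16 in MBT2, Ahnak I1790M at 21.7%, Sptan1 G284S at 32.1% and Arhgap5 A197T at 33.0%, and 0 of 12 in LM8. The microtubule motor and centrosome list, chosen by name pattern, had 2 of 10 and 2 of 11. The MBT2 members were Dync1h1 R3726S at 34.2% and Dync2i1 R254S at 21.6%. The LM8 members were E189G in the centromere gene Cenpq at 20.4% and Kif26b Q623H at 26.1%. The lists together covered 59 of the 218 MBT2 members and 15 of the 57 LM8 members, so most members lay in no list.

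The highest fractions at 50 reads or more were, in MBT2, Nelfb E250D at 89.1% and Zfp948 H195R at 89.0%. They were followed by Trerf1 A102P at 79.5%, the ion channel Trpm6 T1444A at 78.1% and the histone demethylase Kdm2a S1074G at 76.8%. Nelfb, a subunit of a complex that pauses RNA polymerase II, had 100% of 24 reads in library 1 and 80.6% of 31 in library 2. The 3 MBT2 members at 100%, named after their values were seen, were shallow: Abtb1 Y286H with 24 reads, Chd5 C1795S with 15 and Smarca1 T343N with 14. In LM8, Tnxb had 80.3% and 87.2%, and the semaphorin receptor Plxna1 had 65.6% and 64.1%. Ppp4c, Lsm14a S124I at 35.2% and Anxa11 P166A at 32.4% came next, so that no LM8 member lay between 36.3% and 64.9%.

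The base exchanged was not used to choose the members and was tested. Substitutions were folded to 6 classes by the pyrimidine of the base pair. MBT2 members held more C>A and T>C, and LM8 members more T>G and C>T. C>A made up 74 of 218 MBT2 members (33.9%) and 6 of 57 LM8 members (10.5%), an odds ratio of 4.35 (1.75 to 13.0, Fisher's exact test, adjusted p = 8.86e-04). T>C made up 25.2% and 7.02% (odds ratio 4.45, 1.53 to 17.7, Fisher's exact adjusted p = 0.00383). T>G made up 2.29% and 21.1% (odds ratio 0.0892, 0.0234 to 0.288, Fisher's exact adjusted p = 3.62e-05). C>T made up 18.8% and 33.3% (odds ratio 0.465, 0.233 to 0.944, Fisher's exact adjusted p = 0.0441). C>G and T>A did not pass, with adjusted p of 0.0897 and 0.794. The tests count variants, and each line has 1 list, so what they compare is the lists rather than cultures. With library 2 alone, Fisher's exact test left only 2 of the 4 calls, as T>C had an odds ratio of 1.60 (adjusted p = 0.289) and C>T 0.593 (adjusted p = 0.186), while T>G moved to 0.149 and stayed called. With library 1 alone, T>C moved to 2.94 and stayed called. At a limit of 0.3, which leaves 6 LM8 members, none of the 4 was called and C>T turned to 1.32. At a limit of 0.1, which gives 156 LM8 members, T>C was 1.23 and was not called, and T>G moved to 0.451 and stayed called.

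Among the C>A members of MBT2 were Ppp2r1a A147S, Rpl27 G16V, Hnrnpu D459Y and Eif3g D125Y. The windows of Rpl27 and Hnrnpu are shown because both read G to T on the RNA strand.
Rpl27 G16V in MBT2, reference: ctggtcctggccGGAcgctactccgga
Rpl27 G16V in MBT2, alternative: ctggtcctggccGTAcgctactccgga
Hnrnpu D459Y in MBT2, reference: gtccccttagagGACcgagttagagga
Hnrnpu D459Y in MBT2, alternative: gtccccttagagTACcgagttagagga

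On the RNA strand, 59 of the 74 C>A members of MBT2 read G to T and 15 read C to A, a share of 79.7% (68.8 to 88.2). T>C members of MBT2 read A to G in 46 of 55 cases, 83.6% (71.2 to 92.2). Under the limit these shares were 57.7% of 26 and 50.7% of 221. Other pairs of MBT2 members also leaned to the purine on the RNA strand. A to T made up 15 of 19 (78.9%), G to C 62.5% of 24 and G to A 58.5% of 41. The remaining pair had 4 A to C and 1 T to G. The genetic code does not treat the strands alike, and these shares were not tested. The share of C>A was alike in the 2 fraction ranges of MBT2, 34.4% of the 151 members under 0.5 and 32.8% of the 67 above. The 74 changed cytosines stood in varied contexts, 5 of them before a guanine.

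The LM8 T>G members included Spg20 I567S, Col6a3 K1303Q, Nup93 F528C, Usp47 F939V and Uba3 F264C. The fractions of all 12 ran from 20.6% to 29.9%. The 5 MBT2 members of this class included Slc30a9 I329L, in a zinc carrier, at 28.5%.
Spg20 I567S in LM8, reference: gcagctaaatgcATCgttaacaacgtg
Spg20 I567S in LM8, alternative: gcagctaaatgcAGCgttaacaacgtg

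Set beside missense substitutions under the limit in the same line, members differed in 9 of 12 class comparisons (Fisher's exact test, Benjamini-Hochberg over 12). In MBT2, C>A was 33.9% of members and 4.85% of the 536 under the limit (odds ratio 10.0, 6.09 to 17.0, exact adjusted p = 6.90e-23). C>G was also more frequent among MBT2 members (3.77, exact adjusted p = 1.31e-04). C>T (0.422, exact adjusted p = 2.10e-05), T>C (0.481, adjusted p = 8.92e-05) and T>G (0.336, adjusted p = 0.0253) were less frequent. In LM8, T>C was 7.02% of members and 38.0% of the 579 under the limit (odds ratio 0.123, exact adjusted p = 2.18e-06). T>G (3.58, exact adjusted p = 0.00183), C>G (4.26, adjusted p = 6.17e-04) and C>A (3.46, adjusted p = 0.0253) were more frequent among LM8 members. When the sites under the limit were restricted to those at least 10 bases from read ends, only 4 of the 9 calls were left. Then MBT2 T>C turned to 1.05 and C>G fell to 1.24, MBT2 T>G was 0.752, and LM8 C>A was 1.29 and C>G 1.74, with none of these called. With library 2 alone, MBT2 T>G (0.577) and LM8 C>A (2.29) were not called and LM8 T>C moved to 0.343. With library 1 alone, LM8 T>C was 0.190 and LM8 C>A 5.34, both called.

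These contrasts also moved with the limit. At 0.1, MBT2 T>G turned to 1.45 and was not called, while LM8 T>C (0.446) and T>G (2.25) stayed called. At 0.3, LM8 T>G turned to 0.848, and LM8 C>A (5.02), LM8 T>C (0.365) and MBT2 T>G (0.319) were not called. MBT2 C>A stayed called at 6.27 there and at 3.24 with the restriction on read position. LM8 C>G stayed called at 13.5 at a limit of 0.3. MBT2 C>G was 5.98 at 40 reads or more. LM8 C>A was 2.92 and not called without sites that have a listed neighbour within 100 bases.

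**Figure D2:**
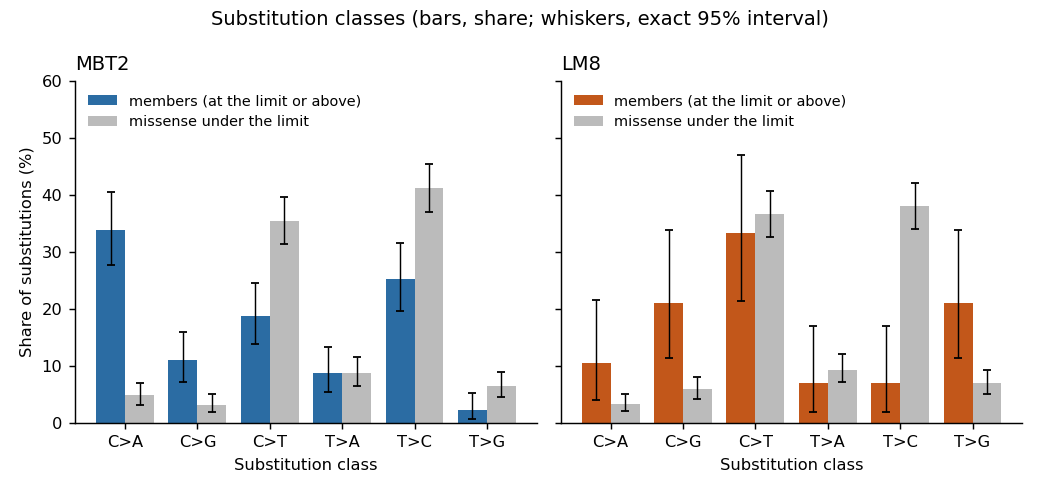
Share of each substitution class (y axis, %) among members (coloured bars) and missense substitutions under the limit (grey bars), by line, with exact 95% intervals as whiskers. C>A stands at 33.9% of MBT2 members and 4.85% under the limit, and T>G at 21.1% of LM8 members and 6.91% under the limit.

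Cytosines followed by a guanine, written CpG, are often methylated in mammals, and their deamination gives C>T. Of the 19 LM8 C>T members, 14 (73.7%) were at CpG, beside 42 of 211 under the limit (19.9%). The odds ratio was 11.1 (3.54 to 41.7, Fisher's exact test, adjusted p = 8.32e-06). It was 3.96 with library 2 alone and 2.86 at a limit of 0.1, both called, but 1.02 and not called at a limit of 0.3, where 6 LM8 members remain in all. The 14 included Tnc R572C, Ybx1 A313T, Setd2 R457Q, Smc5 R289C, Fosl2 R127C and Dhx29 V775I. In MBT2, 16 of 41 (39.0%) were at CpG, beside 44 of 190 (23.2%), with an odds ratio of 2.12 (0.964 to 4.56, Fisher's exact adjusted p = 0.0486) that includes 1. The 16 included Nop2 R227W, Hjurp R350H, Ddx24 R787W and Sptan1 G284S. The share was lower in MBT2 than in LM8 members (odds ratio 0.235, 0.0549 to 0.857, Fisher's exact adjusted p = 0.0376). With library 2 alone the line difference was 0.572 and was not called (exact adjusted p = 0.407), at a limit of 0.1 it was 0.810 and not called, and at 0.3 it turned to 1.92. The MBT2 call was lost in 9 of 11 alternatives, with odds ratios from 1.87 to 2.10, among them each library left out (2.02 to 2.10). The windows of Tnc and Ybx1 are shown for the changed CpG.
Tnc R572C in LM8, reference: catggccaaggcCGCtgtgaggacggc
Tnc R572C in LM8, alternative: catggccaaggcTGCtgtgaggacggc
Ybx1 A313T in LM8, reference: gagaattcgtccGCTcccgaggctgag
Ybx1 A313T in LM8, alternative: gagaattcgtccACTcccgaggctgag

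The exchanged amino acids were scored with BLOSUM62, a matrix in which values under 0 mark exchanges seen less often than by chance between related proteins. In MBT2, 98 of 218 members (45.0%) scored under 0, beside 296 of 536 (55.2%) under the limit (odds ratio 0.663, 0.476 to 0.920, Fisher's exact adjusted p = 0.0378). This call was lost in 6 alternatives, with odds ratios from 0.662 to 0.878. In LM8, 31 of 57 (54.4%) and 56.0% scored under 0 (odds ratio 0.938, 0.524 to 1.69). Formal charge changed in 31.2% of MBT2 and 29.8% of LM8 members, and in 42.4% and 43.5% of sites under the limit. Members lay at codon position 3 in 12.8% and 12.3% of cases, and sites under the limit in 3.73% and 2.94%. Members and sites under the limit also differed in substitution class. The part of class in the BLOSUM62, charge and codon position contrasts was not tested. Valine was the residue most often gained by MBT2 members (10.1%) and leucine by LM8 members (15.8%). Arginine was lost in 15.8% of LM8 members and in 6.42% of MBT2 members.

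Missense members were set beside synonymous substitutions of the same fraction, which leave the protein as it is. Of coding substitutions at 0.2 or more, 70.6% of 309 in MBT2 and 67.9% of 84 in LM8 were missense (odds ratio 1.13, 0.647 to 1.96, Fisher's exact adjusted p = 0.810). Against the same share under the limit, the odds ratio was 1.08 in MBT2 (0.804 to 1.46) and 1.08 in LM8 (0.653 to 1.81). No difference was detected, and the intervals leave room for shifts of the size of their bounds.

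Members and sites under the limit also differed in how the alternative base sat in its reads. The median distance from the read end was 18 bases at MBT2 members and 19 at LM8 members, beside 2 and 3 under the limit. It was 10 bases or more at 208 of 218 MBT2 members (95.4%) and 55 of 57 LM8 members (96.5%), beside 24.6% and 35.2% under the limit. Synonymous substitutions at 0.2 or more stood at 92.3% and 92.6%, near the members. Alternative reads ran in both directions at 215 MBT2 members and all 57 LM8 members, beside 26.5% and 34.9% of sites under the limit.

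The MBT2 exceptions in direction, named after their values were seen, were Hexa A2V, 2310022B05Rik R12S and Tor1b T11M, all in exon 1. Among members whose alternative base lay nearer the read end than 10 bases were Plk1 (5), Cog3 in MBT2 (9) and Itgav (8). The shortest distance, 3, was that of Agps L575V, named after its value was seen. The part of read position in the class differences was not tested beyond the restriction given above.

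**Figure D3:**
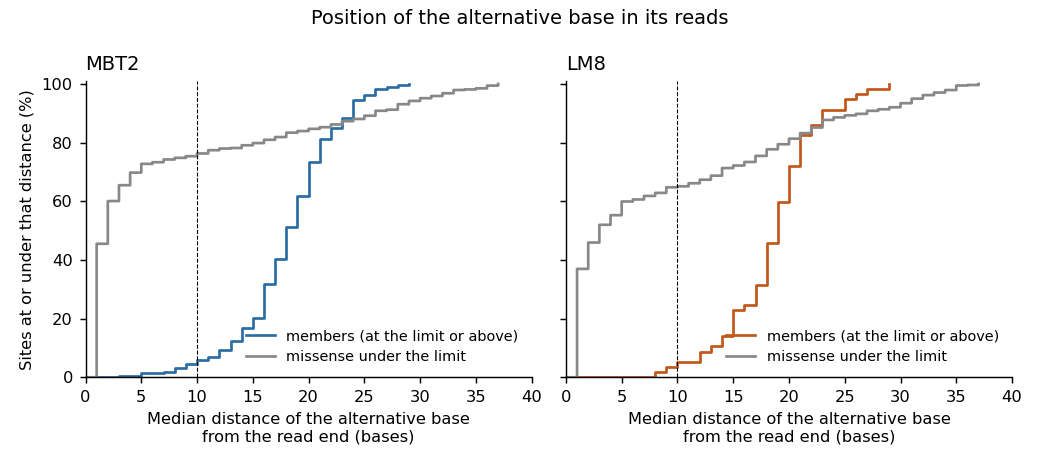
Cumulative share of sites (y axis, %) by the median distance of the alternative base from the read end (x axis, bases), for members (coloured) and missense substitutions under the limit (grey), by line. The dashed line marks 10 bases, reached by 95.4% of MBT2 and 96.5% of LM8 members but by 24.6% and 35.2% of sites under the limit.

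The number of MBT2 members differed by chromosome. Chromosome 11, which carries Trp53 and Ncor1, held 29 of 218, beside 37 of the 536 missense substitutions under the limit. Chromosome 5 held 24 of 218, beside 41 of 536. Chromosomes 4, 10, 13 and 14 together, a group chosen after the values were seen, held 3 of 218 (1.38%, 0.285 to 3.97), beside 88 of 536 under the limit (16.4%, 13.4 to 19.8). In LM8 the same chromosomes held 11 of 57 members (19.3%) and 19.0% of sites under the limit. The MBT2 exceptions there were Cdc42 N92S and Chd5 C1795S on chromosome 4 and Cog3 I635V on chromosome 14. Chromosome 11 also held the most LM8 members, 10 of 57 (17.5%, beside 7.94% of LM8 missense substitutions under the limit). The upper fraction range of MBT2, with 67 of all 218 members, held 7 of 12 on chromosome 19, among them Eef1g, Kdm2a and Trpm6. It held 10 of 19 on chromosome 7, but 5 of 29 on chromosome 11. Chromosomes 5, 7, 11 and 19 were also named after their values were seen. No chromosome count was tested, and copy number was not measured.

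**Figure D4:**
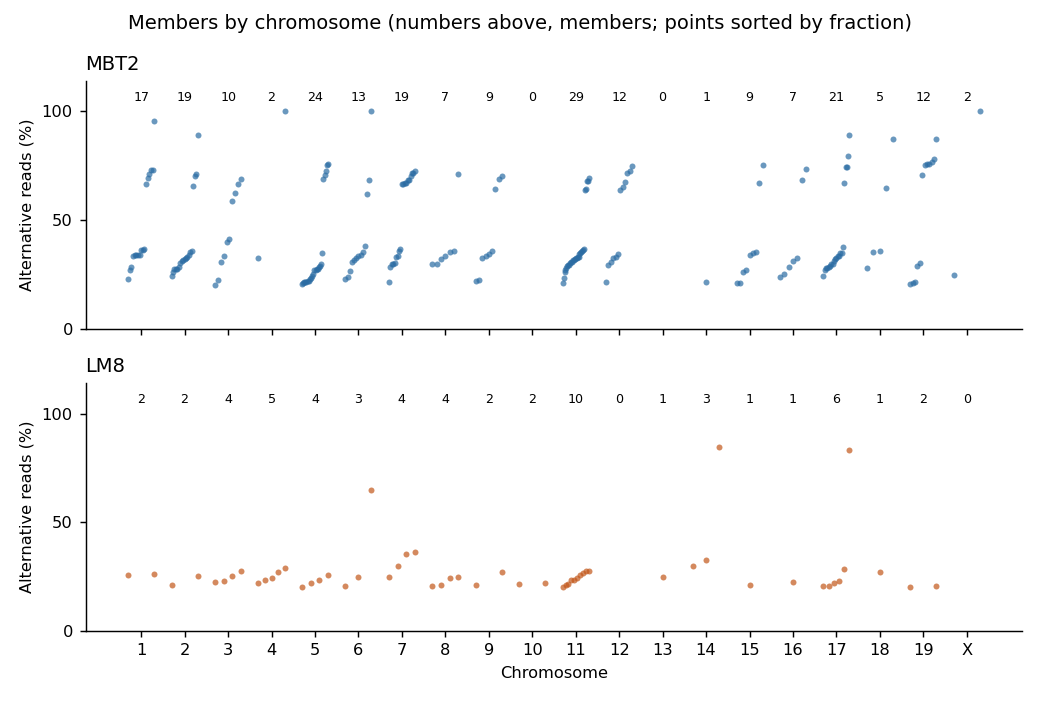
Alternative-read share of each member (y axis, %) by chromosome (x axis), sorted within a chromosome, with the number of members above each column. MBT2 (upper panel) has no member on chromosomes 10 and 13 and 29 on chromosome 11, and LM8 (lower panel) has 10 on chromosome 11.

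Population frequency annotations differed from the list's default value, 2.02 on the −log10 scale, at 5 MBT2 members and 2 LM8 members. These were Abtb1 Y286H, Tmem169 T220A, H2-K1 Y277N, Hjurp R350H and Nop2 R227W in MBT2, and Tnxb T2050S and Ubtf T695M in LM8. Of these, Abtb1, Tmem169 and Ubtf were named after their values were seen. Abtb1 and Tmem169, at 100% and 95.8% of 24 reads each, and Tnxb were among the highest fractions of their lines. What these values mean for a strain difference was not tested.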

How the data were processed

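The deposited files are 1 list of variants per line in variant call format 4.2, with reads per allele and library. Mutect 2.2 called a line's 2 libraries together, without a normal sample, and calls were filtered and selected with GATK 4.1.5.0 and annotated with SnpEff 5.1d (database 105 of GRCm39), per the file headers. The submitters' processing notes name bcl2fastq 2.17.1.14, cutadapt 1.9.1, STAR 2.7.9a and GATK 4.3.0, with no role given. The handling of spliced and of duplicate reads is not stated in the sources used here.

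Fractions were computed from the deposited allele read counts, and the caller's own fraction served as an alternative. The titles give each library's cell line. Fisher's exact tests were two-sided, and p-values were adjusted by Benjamini-Hochberg over each family and called under 0.05. Odds ratios are conditional estimates with exact 95% intervals, and shares have Clopper-Pearson intervals. Differences between lines in an odds ratio used Zelen's exact test, added after the data were seen. Sequence context came from GENCODE M21 transcripts (GRCm38) by identifier, never by coordinate, and the codon matched for 217 of 218 and 56 of 57 members. Steps were tested on simulated data.

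The members and the 19 gene lists were chosen with earlier results of these data known. Named are members in the lists for cancer genes, chromatin, DNA repair, antigen presentation, cell cycle and editing, the 10 deepest and 5 highest per line, those near the limit, those in both lines, and up to 3 deepest of each other list; any other name is marked in the text as picked from the values. A few members are not reported here. Lists for housekeeping genes and markers of other cell types held no member. Python 3.11.15, numpy 2.4.6, pandas 2.3.3, scipy 1.17.1, matplotlib 3.10.9 and Biopython 1.88 were used.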

Additional observations from a re-analysis of the deposited data

Results flagged for a closer look

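The contrast between members and missense substitutions under the limit differed between the lines for 3 of 9 measures (Zelen's exact test, Benjamini-Hochberg over 9). T>G was less frequent among members in MBT2 and more frequent in LM8, with odds ratios of 0.336 and 3.58 (exact adjusted p = 5.36e-04). T>C was less frequent among members in both lines, with odds ratios of 0.481 and 0.123 (exact adjusted p = 0.0417). C>T at CpG had odds ratios of 2.12 and 11.1 (exact adjusted p = 0.0449). At a limit of 0.1 none of these 3 was called, and C>A and C>T were. Calls fell to 0 at a limit of 0.3 and with sites under the limit restricted to those at least 10 bases from read ends, and to 1, T>G, with either library left out.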

How the results depend on the processing

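No paired analysis was possible because each line has 1 joint list and the tests count variants, not libraries. In all, 9 alternatives were planned and 2 added after seeing the data (sites under the limit only at 10 or more bases from read ends, and no other population frequency values). At a limit of 0.1 there were 156 LM8 members, MBT2 T>G against sites under the limit turned to 1.45, T>C between lines was 1.23, BLOSUM62 in MBT2 0.878, CpG between lines 0.810 and in MBT2 1.87, and missense to synonymous between lines 0.956.

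At a limit of 0.3 there were 6 LM8 members, and 0 classes differed between lines and 5 from sites under the limit. Between lines C>A was 2.69, C>T 1.32, T>C 1.32, T>G 0.313 and CpG 1.92. Against sites under the limit, MBT2 T>A was 1.00, T>G 0.319, BLOSUM62 0.706 and CpG 1.99, and LM8 C>A 5.02, T>C 0.365, T>G 0.848, missense to synonymous 0.502 and CpG 1.02. The difference between lines for CpG turned to a ratio of 1.95. Few LM8 members are left there.

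With 1 library left out, the ranges were 2 to 4 called classes between lines, with C>T at 0.466 to 0.593, T>C at 1.60 to 2.94 and CpG at 0.275 to 0.572. Against sites under the limit, MBT2 T>G ran from 0.343 to 0.577, LM8 C>A from 2.29 to 5.34, LM8 BLOSUM62 from 0.652 to 1.21 and MBT2 CpG from 2.02 to 2.10.

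With sites under the limit restricted by read position, 4 classes were called, with MBT2 C>G at 1.24, T>A 1.05, T>C 1.05 and T>G 0.752, LM8 C>A at 1.29 and C>G at 1.74, and BLOSUM62 at 0.769 and 1.08. At 40 reads or more, MBT2 BLOSUM62 was 0.677 and CpG 2.00. With 1 substitution per gene, BLOSUM62 was 0.669 and T>A 1.06. With no listed neighbour within 100 bases, LM8 C>A was 2.92, MBT2 T>A 1.06, BLOSUM62 0.662, CpG 1.87, and missense to synonymous between lines 0.973. With the caller's fraction, LM8 C>T was 1.07 and MBT2 CpG 2.02. CpG in MBT2 was 1.99 for private variants and 1.87 without other population frequency values. Without adjustment, 14 MBT2 and 4 LM8 members differed between libraries. Except where construction removes sites, the cause was not tested. Of 389 alternative values, 312 were labelled the same as the main one. For an odds ratio this means the same direction and side of the threshold, and for a count a similar or equal number.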
